A study of Mus musculus with 8 samples.

Results

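The BET bromodomain inhibitor RVX2135 was compared, on its own, with its solvent in λ820 cells (Lambda-820), an established mouse lymphoma line driven by Myc. RVX2135 cells were kept for 24 h with 10 µM of the drug and DMSO cells for 24 h with DMSO diluted 1:1000, both in RPMI with fetal bovine serum. Each group had 2 one-colour Illumina bead arrays, 4 of the 8 in the series, and n = 2 holds for every group below. The other 4 arrays held cells given 10 µM VE-821, an inhibitor of the kinase ATR, for 24 h with or without 10 µM RVX2135. They entered the fit to estimate the spread, and they served to ask whether a change with RVX2135 was also seen when VE-821 was present. The members were all named probes detected (detection p under 0.05) on both arrays of RVX2135 or of DMSO. They numbered 10431 of 23978 named probes (43.5%) and represented 7508 of 16593 genes. Each gene was read by its brightest kept probe.

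BET proteins bind acetylated lysines of histones at promoters and enhancers and recruit P-TEFb, the kinase complex that releases paused RNA polymerase II. Inhibitors of this class occupy the acetyl-lysine pocket of the bromodomains, and genes that depend on strong lineage enhancers are known to lose transcription when BET proteins leave chromatin. In many cell types the rise of Hexim1, which encodes an inhibitor of P-TEFb, is used as a readout of BET inhibition.

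The 4 arrays were alike in depth of signal. Each array detected 11012 to 11315 of 25697 probes, and the median background-subtracted intensity over the genes tested was 129 to 174. Replicates correlated at 0.995 for RVX2135 and 0.996 for DMSO across genes. Log2 fold changes had a standard error (SE) of 0.12 at the median gene, and the number of arrays limits the precision. Of 9 B lineage markers with a probe, Cd79a, Cd79b, Cd22, Ebf1, Cd74 and Ptprc were detected on all 4 arrays and Vpreb3 on both DMSO arrays and no RVX2135 array, while Ms4a1 and Pax5 were detected on none. Among markers of other cells, 0 of 8 myeloid, 4 of 12 T and NK cell, 2 of 8 erythroid and platelet, and 3 of 9 stromal and endothelial genes with a probe passed the filter. Their summed background-subtracted intensities were 506 to 540 with RVX2135 and 455 to 517 with DMSO for T and NK cells, 930 to 1219 and 1502 to 2064 for erythroid cells and platelets, and 386 to 431 and 735 to 819 for stroma and endothelium. Most of the last sums came from Vim alone, with 357 to 375 with RVX2135 and 629 to 689 with DMSO. Cd2, Prf1, Tfrc, Pecam1, Fbln1 and Vim were detected on all 4 arrays, and Cd3d, Cd3g and Klf1 on both DMSO arrays and no RVX2135 array. Fcgr3, Tyrobp, Epor and Gp9 were detected on 1 DMSO array each and Cd3e on 1 RVX2135 array. Others, among them Lyz2, Mpo, Cd4, Cd8a, Hba-a1, Pf4, Cdh5, Col1a1 and Dcn, were detected on no array. The part of such cells in the results was not tested. In such bulk samples, fewer cells of a type and less RNA per cell cannot be told apart.

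RVX2135 changed the transcript level of 2481 of the 7508 genes, or 33%, with 1223 higher (16.3%) and 1258 lower (16.8%) than in DMSO cells (limma's moderated test, Benjamini-Hochberg adjusted p under 0.05, two-sided). Most changes were small. They stayed under 1.5-fold in 1494 genes, while 141 genes rose and 124 fell by 2-fold or more, and 11 rose and 15 fell by 4-fold or more. The genes that rose furthest belonged to several kinds, among them the PI3 kinase inhibitor Pik3ip1, linker and core histones, the immediate early factors Egr1 and Jun, and the stress genes Ddit3, Chac1 and Ddit4. Those that fell furthest were led by the B cell genes Vpreb3, Fcrla and Fcmr. In 5125 genes (68.3%) the 2 RVX2135 arrays did not overlap the 2 DMSO arrays, so absence of overlap by itself was common. It held for all 2481 called genes, so where it is stated below it adds no support to a call. The labels do not state whether the 2 arrays of a group come from different cultures, and the p-values therefore rest on a spread that may be only technical. Without DMSO replicate 1 the count fell to 1504, and without RVX2135 replicate 2 to 1513.

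**Figure D1:**
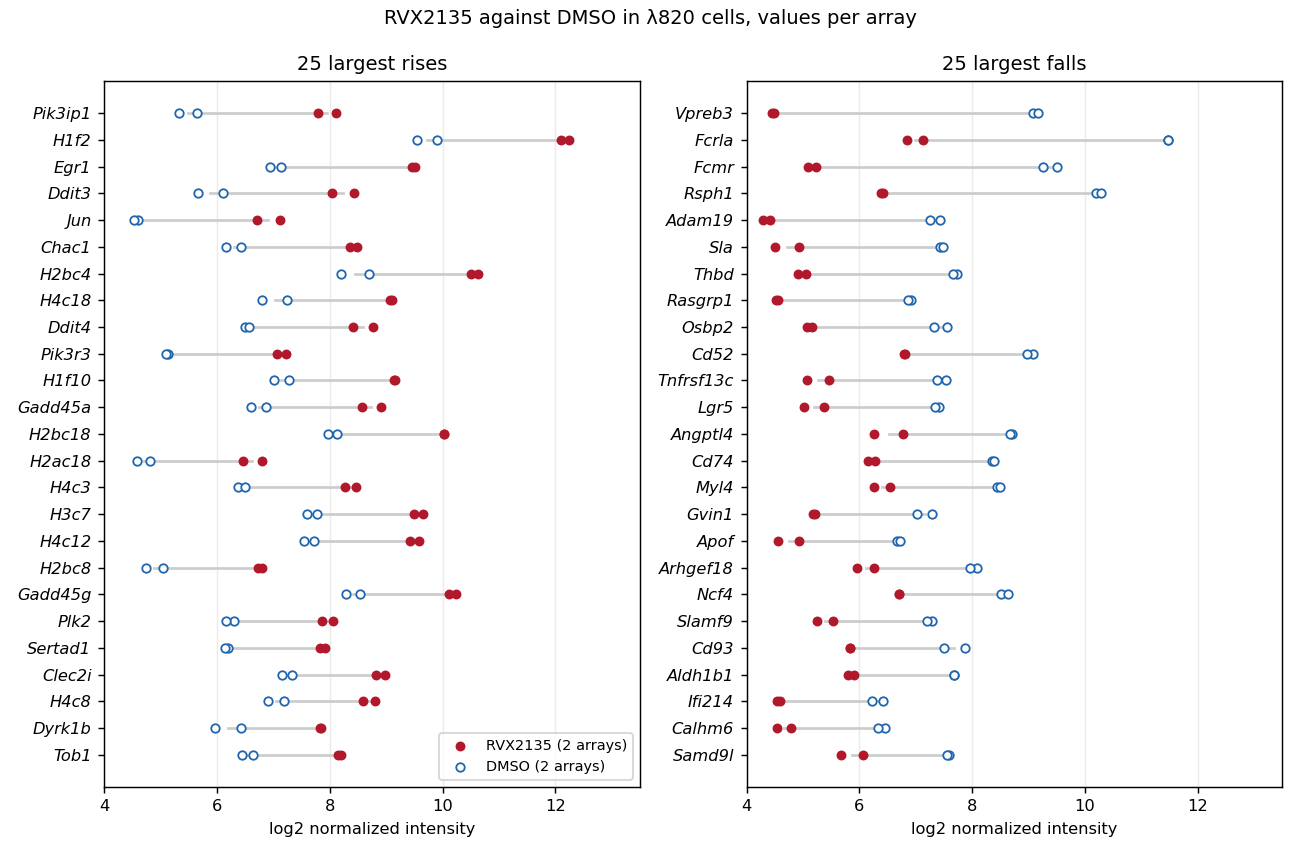
Log2 normalized intensity (x axis) of the 25 genes with the largest rises (left panel) and the 25 with the largest falls (right panel) on the 2 RVX2135 arrays (filled red) and the 2 DMSO arrays (open blue), with a grey line between the group means. Genes were drawn only from those called without overlap, so the gap between the groups follows from the choice. Log2 changes run from 2.46 for Pik3ip1 to -4.65 for Vpreb3, whose RVX2135 arrays lay at background.

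Of 19 genes of the BET and P-TEFb machinery 3 were higher and 3 lower, shares close to the 16.3% and 16.8% of all genes, and the median log2 change was 0.04, against 0.00 over all genes. Hexim1 had log2 intensities of 7.89 and 7.85 with RVX2135, against 6.62 and 6.65 with DMSO. It rose by 1.23 (SE 0.11, adjusted p = 1.16e-05), or 2.35-fold. Brd2, itself a BET protein, had 10.90 and 10.75 with RVX2135, against 10.25 and 10.09 with DMSO, and rose by 0.65 (SE 0.11, adjusted p = 0.000857). Neither gene's arrays overlapped between the groups. Mllt1, a reader of acylated histones in the super elongation complex, fell by 0.59 (adjusted p = 0.00408). Nelfe, a subunit of the pausing factor NELF, and Brd9, a bromodomain protein of SWI/SNF complexes, had changes of -0.44 and -0.41 (adjusted p = 0.0127 and 0.00905), and both lost the call without DMSO replicate 1 (adjusted p = 0.0641 and 0.0519) or RVX2135 replicate 2 (0.100 and 0.0727), which left 1 gene of this list called lower.

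Myc did not fall. Its probe had log2 intensities of 6.66 and 6.84 with RVX2135, against 6.32 and 6.37 with DMSO, a difference of 0.41 (SE 0.11, adjusted p = 0.0179). The call was lost without either DMSO replicate (adjusted p = 0.0967 and 0.0599) and without RVX2135 replicate 2 (0.125), and the labels do not say from which locus these cells transcribe Myc. The largest change among 9 genes of the Myc network was that of Mxd4, which encodes a partner of Max that represses Myc target genes. Mxd4 had 8.06 and 8.10 with RVX2135, against 6.49 and 6.91 with DMSO, and rose by 1.38 (SE 0.17, adjusted p = 0.000129). Max, the shared partner of both, had a change of -0.07 and was not called.

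The largest falls were those of the B cell genes Vpreb3, Fcrla and Fcmr. Vpreb3, a component of the surrogate light chain family of precursor B cells, had 4.46 and 4.49 with RVX2135, where it was not well above background, against 9.08 and 9.16 with DMSO. It was at least 21.3-fold lower (adjusted p = 6.13e-09). Fcrla, which encodes an Fc receptor-like protein held inside B cells, had 7.12 and 6.85 with RVX2135, against 11.47 and 11.48 with DMSO. All 4 kept probes of Fcrla fell, and the one that stands for it was 22.4-fold lower (adjusted p = 2.04e-09). Fcmr, the receptor for the Fc part of IgM, had 5.09 and 5.24 with RVX2135, against 9.50 and 9.26 with DMSO, and was 18.6-fold lower (adjusted p = 5.25e-08). For these 3 genes both RVX2135 arrays lay more than 4 log2 units below both DMSO arrays. The inhibitory receptor Fcgr2b fell by 1.06 (adjusted p = 0.000172), while Fcrl1 and Trim21, the other genes of that list, had changes of -0.21 and 0.17 and were not called.

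Of 18 genes of the B cell receptor and its proximal signalling 10 fell and 2 rose, with a median of -0.40. The signalling chains of the receptor, Cd79a and Cd79b, fell by 1.42 (SE 0.11, adjusted p = 3.99e-06) and 0.88 (SE 0.12, adjusted p = 0.000275). Cd79a had 8.57 and 8.60 with RVX2135, against 10.05 and 9.97 with DMSO, and Cd79b had 10.80 and 10.62 with RVX2135, against 11.62 and 11.57 with DMSO. The groups did not overlap in either gene. Cd22, an inhibitory co-receptor, was 2.75-fold lower, with 7.09 and 6.74 on the RVX2135 arrays, against 8.42 and 8.34 on the DMSO arrays (adjusted p = 6.04e-05). Btk, the kinase downstream of the receptor, was 1.96-fold lower (adjusted p = 0.000218). The Src family kinase Fyn went the other way and rose by 0.62 (adjusted p = 0.000789).

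Of 19 B lineage transcription factors 7 fell and 5 rose, with a median of -0.22. The falls included Pou2f2, the octamer factor Oct-2, with 4.78 and 4.38 with RVX2135, against 6.16 and 5.96 with DMSO (log2 change -1.48, SE 0.14, adjusted p = 2.02e-05), and only 1 of its 2 RVX2135 arrays was above background. Spib, an Ets factor of B cells, fell by 1.24 (adjusted p = 4.19e-05), Ebf1, a factor that specifies the B lineage, by 0.99 (adjusted p = 0.000309), and Ikzf1, which encodes Ikaros, by 0.83 (adjusted p = 0.000167). The rises included Bcl6, the repressor of germinal centre B cells, which rose by 0.79 (SE 0.11, adjusted p = 0.00033). Id2, an inhibitor of E proteins, was not well above background with DMSO and was at least 1.89-fold higher with RVX2135 (adjusted p = 0.000208). The count of rises was 3 without RVX2135 replicate 1, and likewise 3 without RVX2135 replicate 2. Among plasma cell genes, 5 of 9 fell and 0 rose, led by the surface receptor Slamf7, which was 3.15-fold lower (adjusted p = 2.13e-06), and the factor Irf4, which was 2.01-fold lower (adjusted p = 6.03e-05).

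MHC class II genes fell, while class I genes went both ways. Of 9 class II presentation genes 7 were lower and 0 higher, with a median of -0.77. Cd74, the invariant chain that escorts class II molecules, had 6.28 and 6.16 with RVX2135, against 8.35 and 8.39 with DMSO, a 4.45-fold fall (SE 0.10 on the log2 scale, adjusted p = 1.67e-07). H2-Ab1, a class II beta chain, had 5.24 and 5.30 with RVX2135, against 6.30 and 6.67 with DMSO, and was 2.33-fold lower (adjusted p = 9.01e-05), and each of its 4 kept probes fell. H2-Aa, the matching alpha chain, was not well above background with RVX2135 and was at least 2.19-fold lower (adjusted p = 6.5e-05). H2-Ob, a chain of the peptide-loading modulator DO, was 2.32-fold lower (adjusted p = 1.11e-05). Of 19 class I genes, 4 rose and 3 fell, with a median of 0.14. The 4 that rose were all class I heavy chains. H2-K1 had 6.15 and 6.29 with RVX2135, against 5.28 and 5.52 with DMSO, and rose by 0.82 (adjusted p = 0.000364), and H2-T23, H2-Q7 and H2-D1 rose by 0.84, 0.80 and 0.56 (adjusted p = 0.000178, 0.00204 and 0.00362). These heavy chains are near-identical in sequence, so their probes can share signal. The falls among class I genes, which included the trimming peptidase Erap1 (log2 change -0.62, with 1 of 2 RVX2135 arrays above background), numbered 1 without RVX2135 replicate 1 and 1 without DMSO replicate 2.

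Of 13 cytokine and TNF family receptors 4 fell, 1 rose and 8 were not called (median -0.10). Tnfrsf13c, the receptor for the survival factor BAFF, had 5.46 and 5.06 with RVX2135, against 7.54 and 7.37 with DMSO, and was 4.57-fold lower (SE 0.17 on the log2 scale, adjusted p = 4.62e-06). Cd40, the receptor for T cell help, was 1.96-fold lower (adjusted p = 7.69e-05), and Il7r, the interleukin-7 receptor of precursor B cells, was not well above background with RVX2135 and at least 1.51-fold lower (adjusted p = 4.13e-05). Of 8 chemokine, lipid and purine receptors 5 fell and 2 rose. The homing receptor Ccr7 fell by 0.87 (adjusted p = 0.00296) and the sphingosine receptor S1pr2 by 1.03 (adjusted p = 0.000508), whereas Lpar6, a lysophosphatidic acid receptor, rose by 0.99 (adjusted p = 9.24e-05). Of 24 adhesion and surface molecules 11 fell and 0 rose, with a median of -0.38. The metalloprotease Adam19 was not well above background with RVX2135 and was at least 6.21-fold lower (adjusted p = 1.68e-08). Cd52, a small glycoprotein of lymphocytes, had 6.78 and 6.81 with RVX2135, against 9.08 and 8.98 with DMSO, and was 4.71-fold lower (adjusted p = 1.3e-06), and Cd93 was 3.61-fold lower (adjusted p = 7.11e-06).

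Outside these lists, other large falls were those of Rsph1, a protein of the radial spoke of cilia, with 6.42 and 6.38 with RVX2135, against 10.19 and 10.29 with DMSO (14.3-fold lower, adjusted p = 2.04e-09). Sla, an adaptor that dampens antigen receptor signalling, was 6.67-fold lower (adjusted p = 1.84e-07, with 1 of 2 RVX2135 arrays above background), and the thrombin receptor Thbd 6.56-fold lower (adjusted p = 8.46e-08). Lgr5, a receptor for R-spondins, was 4.54-fold lower (adjusted p = 5.27e-07), and Osbp2, an oxysterol-binding protein, was 5.00-fold lower (adjusted p = 1.87e-07). All 5 had arrays that did not overlap between the groups.

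Histone transcripts rose as a class, apart from most H2A genes. All 4 linker histone genes tested were higher (median 1.69), and of 42 replication-type core histone genes 33 were higher and 3 lower (median 1.34). H1f2 had 12.24 and 12.11 with RVX2135, against 9.55 and 9.90 with DMSO, and was 5.45-fold higher (SE 0.13 on the log2 scale, adjusted p = 2.85e-07). H1f10, a linker histone whose transcript is polyadenylated, was 4.02-fold higher (adjusted p = 1.24e-06). By family, 10 of 10 H2B, 9 of 9 H3 and 10 of 10 H4 genes rose, with medians of 1.57, 1.28 and 1.44. Of 13 H2A genes only 4 rose, while 3 fell and the median was -0.17. The 3 that fell, H2ac12, H2ac15 and H2ac7 (named after their values were seen), had changes of -0.43, -0.37 and -0.35. None of them was called with median scaling in place of quantile normalization, and 1 was without RVX2135 replicate 1 or DMSO replicate 2. H2bc18 had 10.02 and 10.02 with RVX2135, against 7.98 and 8.12 with DMSO, a 3.92-fold difference (adjusted p = 2.85e-07). H4c12 had 9.43 and 9.58 with RVX2135, against 7.55 and 7.72 with DMSO, a 3.66-fold difference (adjusted p = 1.51e-06). Histone genes of a family are near-identical and their probes can share signal, so single members are uncertain. Transcripts of replication-type histone genes normally end in a stem-loop without a poly(A) tail, and the labels do not say how RNA was primed for labelling. Of 8 replacement variants 2 rose and 1 fell (median 0.07), and 1 rose when any 1 of the 4 arrays was left out. H3f3b, which encodes the variant H3.3, rose by 0.96 (adjusted p = 3.24e-05), and Macroh2a1 fell by 0.49 (adjusted p = 0.00336).

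Promoters of the histone genes are shown because most of these genes rose and many hold an element known from textbook work, the CCAAT box bound by NF-Y. RefSeq promoter windows on GRCm38.p6, from 250 bases before to 50 after a start, were found for 42 of the 46 linker and core genes tested. The letters CCAAT, searched on both strands (ATTGG on the other), lay in 3 of 4 linker windows (75.0%) and 31 of 38 core windows (81.6%), compared with 12289 of 32851 windows in the whole table (37.4%). In the core windows the letters occurred in 22 of 29 windows of genes that rose (75.9%) and in 3 of 3 of genes that fell. They were thus no more frequent in genes that rose than in the core list as a whole. The windows of the linker and the core gene with the smallest adjusted p among those that hold the letters are given 5′ to 3′ on the gene's strand, with CCAAT or its complement in capitals. That of H1f2 is chr13:23738557-23738856 (+ strand) and that of H2bc18 is chr3:96269450-96269749 (+ strand).
H1f2: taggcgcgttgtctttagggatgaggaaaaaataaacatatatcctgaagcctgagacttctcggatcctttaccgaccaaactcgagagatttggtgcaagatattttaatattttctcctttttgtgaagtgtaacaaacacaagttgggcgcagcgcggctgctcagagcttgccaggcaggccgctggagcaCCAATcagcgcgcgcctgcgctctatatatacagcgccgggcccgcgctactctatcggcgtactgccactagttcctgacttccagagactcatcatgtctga
H2bc18: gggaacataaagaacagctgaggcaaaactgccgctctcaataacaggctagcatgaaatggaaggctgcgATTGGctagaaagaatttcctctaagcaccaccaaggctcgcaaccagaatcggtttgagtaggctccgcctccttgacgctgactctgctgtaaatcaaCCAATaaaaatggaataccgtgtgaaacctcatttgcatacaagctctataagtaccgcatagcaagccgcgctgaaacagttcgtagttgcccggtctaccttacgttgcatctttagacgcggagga
A match of letters is a description of the window and does not show that a factor binds there.

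Genes of DNA replication fell together. Of 23 origin licensing and firing genes 16 fell and 1 rose (median -0.53), of 29 replication fork and polymerase genes 22 fell and 0 rose (median -0.53), of 30 nucleotide synthesis genes 14 fell and 0 rose (median -0.29), and of 18 G1 cyclin, kinase, pocket protein and E2F genes 14 fell and 1 rose (median -0.52). The lowest log2 change in these 4 lists was -1.03. Cdc6, which loads the MCM helicase at origins, had 8.04 and 7.76 with RVX2135, against 8.93 and 8.88 with DMSO, and was 2.01-fold lower (SE 0.11 on the log2 scale, adjusted p = 6.26e-05). Of its 2 other kept probes, both dimmer, 1 was called. The helicase subunits Mcm2 and Mcm5 were each 1.79-fold lower (adjusted p = 9.24e-05 and 0.000147). At the fork, Uhrf1, which guides maintenance methylation of new DNA, had 10.56 and 10.35 with RVX2135, against 11.49 and 11.45 with DMSO, and was 2.01-fold lower (adjusted p = 5.63e-05). The flap endonuclease Fen1 was 1.97-fold lower (adjusted p = 6.26e-05) and the checkpoint mediator Clspn 1.85-fold lower (adjusted p = 9.01e-05), and all 4 kept probes of Clspn were lower. Dut, which keeps uracil out of DNA by degrading dUTP, was 2.03-fold lower (adjusted p = 8.09e-05), and Rrm1, the large subunit of ribonucleotide reductase, 1.72-fold lower (adjusted p = 0.000135). Cdc25a, the phosphatase that activates Cdk2, had 7.24 and 7.19 with RVX2135, against 8.23 and 8.27 with DMSO, and was 2.04-fold lower (adjusted p = 3.05e-05). E2f5, a repressive E2F factor, rose by 0.66 (adjusted p = 0.000733). The nucleotide synthesis falls numbered 8 without DMSO replicate 1.

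E2F factors bind the sequences TTTGGCGC and TTTCCCGC in many replication genes, and the windows of 2 such genes are shown for this reason. Either sequence, on either strand, lay in 9 of 24 windows of licensing and firing genes (37.5%), 5 of 33 windows of fork genes (15.2%), 4 of 18 windows of G1 and E2F genes (22.2%) and 2 of 36 windows of nucleotide synthesis genes (5.56%). In the whole table it lay in 514 of 32851 windows (1.56%), and in 237 of 7977 windows of genes tested (2.97%). Windows were found for 19 of 23, 25 of 29, 12 of 18 and 28 of 30 genes of these lists, in that order of naming. In windows of genes called lower, a match lay in 8 of 16 for licensing and firing, 3 of 25 for the fork and 4 of 16 for G1 and E2F. Among the 16 windows of nucleotide synthesis genes called lower 0 held a match. For each of the other lists the called gene with the smallest adjusted p and a match was taken, and those of the licensing and the G1 list are given with the match in capitals, Cdc6 at chr11:98907901-98908200 (+ strand) and Cdc25a at chr9:109875329-109875628 (+ strand).
Cdc6: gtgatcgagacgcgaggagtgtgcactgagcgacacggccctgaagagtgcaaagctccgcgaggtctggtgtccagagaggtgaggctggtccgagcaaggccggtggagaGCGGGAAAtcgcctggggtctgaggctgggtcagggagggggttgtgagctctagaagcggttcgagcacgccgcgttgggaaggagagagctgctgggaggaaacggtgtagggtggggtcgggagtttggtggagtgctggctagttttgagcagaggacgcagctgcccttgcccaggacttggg
Cdc25a: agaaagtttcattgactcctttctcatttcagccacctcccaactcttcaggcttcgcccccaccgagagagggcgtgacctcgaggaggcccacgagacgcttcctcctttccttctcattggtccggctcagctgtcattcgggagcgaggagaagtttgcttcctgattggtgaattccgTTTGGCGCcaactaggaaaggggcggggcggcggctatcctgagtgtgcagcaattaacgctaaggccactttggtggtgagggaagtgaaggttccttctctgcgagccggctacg
In Cdc6 the match begins 138 bases before the start and reads on the other strand, and in Cdc25a it begins 67 bases before the start.

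Inhibitors of cyclin-dependent kinases rose, with 4 of 7 higher and 0 lower (median 0.52). Cdkn1b, which encodes p27, had 6.67 and 6.73 with RVX2135, against 5.38 and 5.57 with DMSO, and was 2.34-fold higher (SE 0.11 on the log2 scale, adjusted p = 1.16e-05). Cdkn2b, which encodes p15, had 7.63 and 7.85 with RVX2135, against 6.08 and 6.19 with DMSO, and was 3.05-fold higher (adjusted p = 2.19e-06). The groups did not overlap in either gene. Cdkn1c, which encodes p57, rose by 0.82 (adjusted p = 0.000437). Cdkn1a, which encodes p21 and is the best known p53 target of this family, had 5.17 and 5.22 with RVX2135, against 5.08 and 5.07 with DMSO, and was not called (log2 change 0.12, SE 0.11, adjusted p = 0.46).

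Of 35 genes of G2 and mitosis 21 fell and 0 rose (median -0.37). Espl1, the separase that cleaves cohesin, had 7.05 and 7.05 with RVX2135, against 7.97 and 7.96 with DMSO, and was 1.89-fold lower (adjusted p = 3.79e-05). The central spindle motor Kif23 was 1.96-fold lower (adjusted p = 0.000231) and Mybl2, a factor of the mitotic gene programme, 1.88-fold lower (adjusted p = 0.000535). Of 44 checkpoint and repair genes 19 fell and 4 rose (median -0.29). Chek1, the kinase that ATR activates, had 5.02 and 5.14 with RVX2135, against 5.91 and 6.05 with DMSO, and was 1.87-fold lower (SE 0.11 on the log2 scale, adjusted p = 0.000153). The recombination factor Rad54l was 1.79-fold lower (adjusted p = 0.000701). These counts depended on single arrays. The mitotic falls numbered 13 without DMSO replicate 1 and 12 without RVX2135 replicate 2, and the checkpoint and repair falls 9 in both cases, with 0 and 1 rises.

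Immediate early genes rose, with 19 of 28 higher and 1 lower (median 0.65). Egr1 had 9.50 and 9.46 with RVX2135, against 7.14 and 6.94 with DMSO, and was 5.44-fold higher (SE 0.13 on the log2 scale, adjusted p = 3.23e-07). Jun had 6.70 and 7.11 with RVX2135, against 4.60 and 4.54 with DMSO, where it was not well above background, and was at least 4.74-fold higher (adjusted p = 4.9e-07). Its partner Fos was 2.69-fold higher (adjusted p = 1.85e-05), and Btg2, an antiproliferative gene of this class, 2.34-fold higher (adjusted p = 3.26e-05). No group overlapped in these 4 genes. Dusp1, a phosphatase that inactivates MAP kinases, had 8.80 and 8.83 with RVX2135, against 7.16 and 7.29 with DMSO, and was 3.02-fold higher (adjusted p = 7.83e-06). Rasgrp1, which activates Ras downstream of antigen receptors, had 4.53 and 4.55 with RVX2135, against 6.92 and 6.87 with DMSO, and was at least 4.57-fold lower, since it was not well above background with RVX2135 (adjusted p = 4.95e-08). In the Ras and MAP kinase list 9 of 21 genes rose and 2 fell, and the rises numbered 4 without DMSO replicate 1 and 4 without RVX2135 replicate 2.

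Brakes of PI3 kinase and mTOR signalling were among the largest rises. Pik3ip1, which inhibits the catalytic subunit of PI3 kinase, had 7.79 and 8.11 with RVX2135, against 5.33 and 5.64 with DMSO, and was 5.51-fold higher (SE 0.18 on the log2 scale, adjusted p = 3.09e-06). Ddit4, an inhibitor of mTORC1 also known as Redd1, had 8.41 and 8.77 with RVX2135, against 6.50 and 6.57 with DMSO, and was 4.16-fold higher (adjusted p = 1.47e-06). Pik3r3, a regulatory subunit of PI3 kinase, was 4.06-fold higher (adjusted p = 2.69e-06). The sestrin Sesn3 was 2.38-fold higher (adjusted p = 8.93e-05). Mtor itself had 6.76 and 6.77 with RVX2135, against 8.15 and 7.85 with DMSO, and was 2.35-fold lower (adjusted p = 3.24e-05). In all, 7 of 21 genes of this pathway rose and 4 fell, and the falls numbered 2 without RVX2135 replicate 2.

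Of 30 p53 target genes 13 rose and 3 fell (median 0.27). Those that rose furthest were the growth arrest genes Gadd45a and Gadd45g and the polo-like kinase Plk2. Gadd45a had 8.57 and 8.91 with RVX2135, against 6.61 and 6.88 with DMSO, and was 3.99-fold higher (SE 0.15 on the log2 scale, adjusted p = 4.11e-06). Gadd45g was 3.41-fold higher (adjusted p = 4.41e-06) and Plk2 3.32-fold higher (adjusted p = 2.19e-06). Trp53inp1, which promotes autophagy and cell death, was 3.00-fold higher (adjusted p = 1.16e-05). Bbc3, which encodes the BH3-only killer Puma, had 10.45 and 10.61 with RVX2135, against 8.80 and 9.25 with DMSO, and was 2.84-fold higher (adjusted p = 1.88e-05). Bmf, another BH3-only gene, was 1.99-fold higher (adjusted p = 0.000109). These were the 2 rises among 19 pro-apoptotic genes, of which 5 fell, led by Bad (log2 change -0.61, adjusted p = 0.000659). The falls numbered 3 without DMSO replicate 1, 1 without DMSO replicate 2 and 2 without RVX2135 replicate 2. The survival gene Bcl2 was not well above background with RVX2135 and at least 1.25-fold lower (adjusted p = 0.00483, and 0.0625 without DMSO replicate 1).

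Stress genes rose in part, and the counts below stand beside 16.3% higher and 16.8% lower over all genes. Of 41 genes that ATF4 and CHOP regulate 16 rose and 3 fell, with a median of 0.07. Ddit3, which encodes CHOP, had 8.05 and 8.42 with RVX2135, against 5.66 and 6.11 with DMSO, and was 5.10-fold higher (SE 0.18 on the log2 scale, adjusted p = 4.12e-06). Chac1, a glutathione-degrading enzyme, had 8.37 and 8.48 with RVX2135, against 6.16 and 6.43 with DMSO, and was 4.37-fold higher (adjusted p = 4.52e-07). Atf4 itself rose by 0.84 (adjusted p = 0.000321). The members that rose included the amino acid transporter gene Slc38a2 (log2 change 0.82), and those that fell included Shmt2, a mitochondrial serine hydroxymethyltransferase (-0.59). The falls of this list numbered 1 without DMSO replicate 1 and 1 without RVX2135 replicate 2. Of 25 endoplasmic reticulum chaperone and degradation genes 6 rose and 1 fell (median 0.10). Dnajb9, a co-chaperone there, rose by 0.94 (adjusted p = 0.000135), and Hspa5, which encodes the chaperone BiP, had a change of 0.38 (adjusted p = 0.0329) whose call was lost without either DMSO replicate (0.127 and 0.0979) and without RVX2135 replicate 2 (0.210). The rises of this list numbered 3 without DMSO replicate 1, RVX2135 replicate 1 or DMSO replicate 2. Of 19 heat shock genes 5 rose and 3 fell (median -0.08), and the falls numbered 0 without DMSO replicate 1 and 0 without RVX2135 replicate 2. The small heat shock protein gene Hspb1 was 2.22-fold higher (adjusted p = 0.000889).

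Sterol and fatty acid synthesis genes rose, with 18 of 31 higher and 0 lower (median 0.48). Hmgcs1, the synthase that makes the substrate of HMG-CoA reductase, had 13.11 and 12.96 with RVX2135, against 11.85 and 11.92 with DMSO, and was 2.22-fold higher (SE 0.10 on the log2 scale, adjusted p = 1.16e-05). Acss2, which makes acetyl-CoA from acetate, had 7.51 and 7.50 with RVX2135, against 6.15 and 6.55 with DMSO, and was 2.23-fold higher (adjusted p = 6.4e-05). The sterol methyl oxidase Msmo1 was 2.10-fold higher (adjusted p = 9.24e-05), the desaturase Scd2 2.34-fold higher (adjusted p = 0.00022) and the sterol demethylase Cyp51 1.74-fold higher (adjusted p = 0.000215). The groups did not overlap in these 5 genes. A shortened sterol element, ATCACCCC, was searched on both strands and lay in 1 of 33 windows of this list (3.03%), against 253 of 32851 in the whole table (0.770%) and 41 of 7977 of genes tested (0.514%). The 1 window was that of Srebf2, the sterol-responsive transcription factor of this pathway, which rose by 0.51 (adjusted p = 0.00281). It is printed for this reason, at chr15:82147019-82147318 (+ strand) with the element in capitals.
Srebf2: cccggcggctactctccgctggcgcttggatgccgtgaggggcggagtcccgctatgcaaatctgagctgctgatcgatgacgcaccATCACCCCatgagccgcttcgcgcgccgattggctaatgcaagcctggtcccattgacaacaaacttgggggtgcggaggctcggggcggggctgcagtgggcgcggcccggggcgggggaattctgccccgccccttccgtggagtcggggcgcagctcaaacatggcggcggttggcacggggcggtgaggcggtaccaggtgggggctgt
Windows were found for 25 of the 31 genes, and a missing match says only that these letters are not in the window.

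Lysosome and autophagy genes rose in 19 of 40 cases and fell in 4 (median 0.34). Sqstm1, the autophagy receptor p62, had 9.53 and 9.71 with RVX2135, against 8.22 and 8.48 with DMSO, and was 2.41-fold higher (adjusted p = 2.87e-05). The conjugation factor Atg12 was 2.38-fold higher (adjusted p = 1.66e-05), the sialidase Neu1 1.96-fold higher (adjusted p = 5.86e-05) and Map1lc3b, which coats autophagosomes, 1.81-fold higher (adjusted p = 0.000175). The falls included the proteases Ctsh (2.28-fold, adjusted p = 5.79e-05) and Ctss (log2 change -0.74), of which Ctss also cuts Cd74 during class II loading.

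Of 31 interferon-stimulated genes 6 were higher, 8 lower and 17 not called (median 0.04), against 16.3% higher and 16.8% lower over all genes. Ifit3, an antiviral protein, had 6.95 and 7.36 with RVX2135, against 5.40 and 6.01 with DMSO, and was 2.74-fold higher (SE 0.20 on the log2 scale, adjusted p = 0.000306). Samd9l had 6.06 and 5.67 with RVX2135, against 7.59 and 7.56 with DMSO, and was 3.27-fold lower (adjusted p = 1.63e-05). Parp14 was 3.15-fold lower (adjusted p = 1.78e-06). The groups did not overlap in any of the 3. The falls numbered 5 without DMSO replicate 1 and 5 without RVX2135 replicate 2. Of 21 genes in a list of NF-kappaB subunits, targets and chemokines 5 rose and 4 fell, against the same shares over all genes. The called members included Angptl4, a secreted lipase inhibitor that was 4.48-fold lower (adjusted p = 3.33e-06), and Nfkbia, the inhibitor of NF-kappaB, which rose by 0.78. The rises numbered 3 without DMSO replicate 1 and the falls 2 without RVX2135 replicate 2.

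Of 45 ribosome biogenesis genes 15 fell and 3 rose (median -0.23), and the spermidine synthase Srm, a known Myc target, had 10.57 and 10.65 with RVX2135, against 11.44 and 11.36 with DMSO, and was 1.73-fold lower (adjusted p = 0.000449). The falls numbered 7 without DMSO replicate 1 and 9 without DMSO replicate 2 or RVX2135 replicate 2, and the rises 0 or 1 without any 1 array. Of 67 mitochondrial ribosome genes 10 fell and 4 rose (median -0.10), against 16.8% lower and 16.3% higher over all genes. Those falls numbered 5 without DMSO replicate 1, 4 without RVX2135 replicate 1 and 5 without DMSO replicate 2. Of 26 glycolysis and hypoxia genes 4 fell and 3 rose (median 0.04), against the same shares over all genes. Lactate dehydrogenase Ldha fell by 0.58 (adjusted p = 0.00177), and the glycolysis rises numbered 1 without DMSO replicate 1 or RVX2135 replicate 1, and the falls 1 without RVX2135 replicate 2 and 2 without either DMSO replicate. Of 42 chromatin modifiers 9 rose and 6 fell (median 0.06), against 16.3% higher and 16.8% lower over all genes. The de novo methyltransferase Dnmt3b had 7.66 and 7.77 with RVX2135, against 8.81 and 8.72 with DMSO, and was 2.07-fold lower (adjusted p = 2.49e-05). The rises of this list numbered 3 without DMSO replicate 1 and 4 without RVX2135 replicate 1, and the falls 3 without DMSO replicate 1 and 2 without RVX2135 replicate 2.

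**Figure D2:**
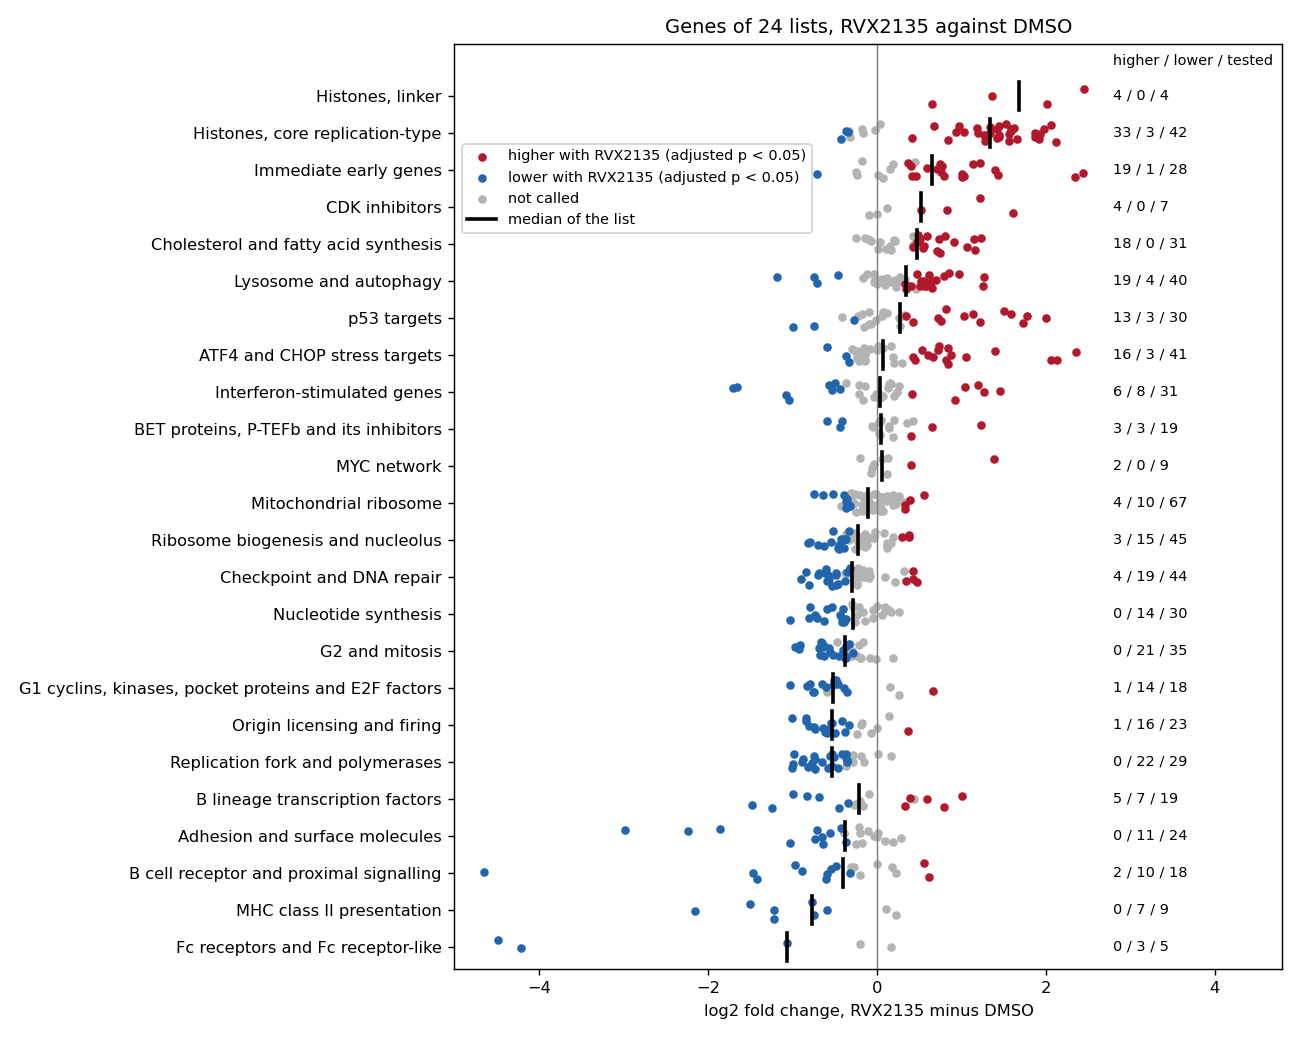
Log2 fold change of RVX2135 minus DMSO (x axis) for each tested gene of 24 gene lists (rows), red where higher, blue where lower and grey where not called, with the list median as a black bar and the counts at the right. Histones and immediate early genes lie to the right of 0 (medians 1.34 and 0.65 for core histones and immediate early genes), and replication, MHC class II and Fc receptor genes to the left (medians -0.53, -0.77 and -1.06).

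The same drug was next read in cells that also received VE-821. RVX2135 with VE-821 differed from VE-821 alone in 3811 genes (50.8%), of which 1832 were higher and 1979 lower. This comparison shares no array with RVX2135 against DMSO, and all arrays were normalized together. Across the 7508 genes, which are not independent replicates, the 2 log2 changes correlated at 0.58 (Pearson) and 0.49 (Spearman). Of the 2481 genes that RVX2135 alone changed, 1432 changed the same way with VE-821 present, 174 changed the opposite way, and the sign was the same in 79.4%, against 66.1% of all genes. Of the 265 genes that RVX2135 alone changed by 2-fold or more, 223 changed the same way, 8 the opposite way and 34 were not called. The difference between the 2 changes, tested as an interaction, was called in 2146 genes (28.6%), of which 955 were positive and 1191 negative.

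**Figure D3:**
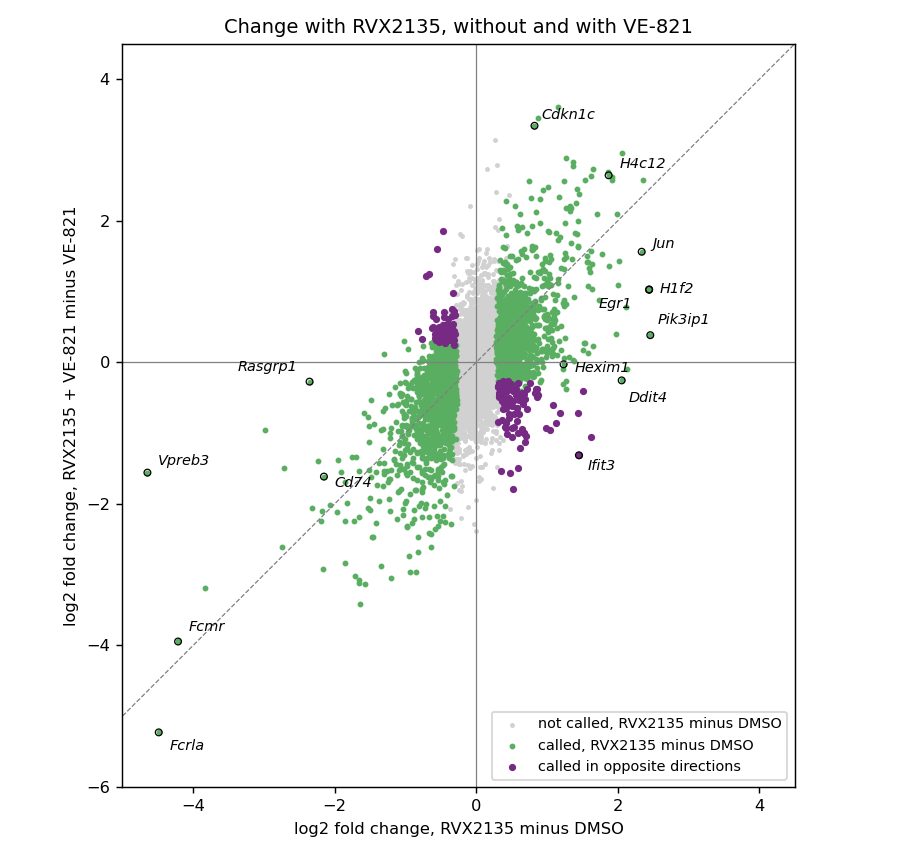
Log2 fold change of RVX2135 minus DMSO (x axis) against that of RVX2135 with VE-821 minus VE-821 (y axis) for 7508 genes, green where RVX2135 minus DMSO was called and purple where both comparisons were called in opposite directions. Fcrla and Fcmr lie near the dashed line of equal change, while Hexim1 (1.23 and -0.03), Ddit4 (2.06 and -0.26) and Pik3ip1 (2.46 and 0.38) lie near 0 on the y axis.

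Leading B cell genes fell with and without VE-821. Fcrla had 5.11 and 5.27 with both drugs, against 10.48 and 10.36 with VE-821 alone, a change of -5.23, compared with -4.49 for RVX2135 without VE-821 (interaction -0.74, adjusted p = 0.00757). Fcmr changed by -3.95 with VE-821 and -4.21 without it (interaction 0.27, adjusted p = 0.444), and Tnfrsf13c by -2.24 and -2.19 (interaction -0.05, adjusted p = 0.904). Ikzf1 fell further in the presence of VE-821, with -2.46 and -0.83 (interaction -1.64, adjusted p = 4.12e-05), and so did Btk, with -2.31 and -0.97 (interaction -1.34, adjusted p = 0.000477). For Vpreb3, at background with RVX2135, the changes were -1.56 with VE-821 and -4.65 without it, where it is bounded as above.

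Several genes that rose with RVX2135 alone were not called when VE-821 was present, and their interactions were called. Hexim1 had 6.21 and 6.04 with both drugs, against 6.24 and 6.06 with VE-821 alone, a change of -0.03 (adjusted p = 0.845), and the interaction was -1.26 (adjusted p = 0.000199). Ddit4 had 7.07 and 7.16 with both drugs, against 7.26 and 7.49 with VE-821 alone (interaction -2.31, adjusted p = 2.38e-05). Pik3ip1 had 7.73 and 7.91 with both drugs, against 7.17 and 7.70 with VE-821 alone (interaction -2.08, adjusted p = 0.000213). The lowest arrays of Ddit4 and of Pik3ip1 were the 2 of DMSO. Mxd4 changed by 0.02 with VE-821 and 1.38 without it (interaction -1.36, adjusted p = 0.00208). Brd2 went the other way and rose by 1.19 with VE-821 and 0.65 without it (interaction 0.53, adjusted p = 0.022).

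Of the licensing and firing genes 6 fell with VE-821 (median -0.08), against 16 without it (median -0.53), and the interaction was called in 11 of 23. Cdc6 had 8.47 and 8.42 with both drugs, against 8.58 and 8.54 with VE-821 alone, a change of -0.12 (interaction 0.88, adjusted p = 0.00224). Of the fork genes 15 fell with VE-821 and 22 without it, with the interaction called in 5 of 29, against 28.6% over all genes. Nucleotide synthesis genes fell in 20 cases with VE-821 and 14 without it, while over all 7508 genes 1979 fell with VE-821 and 1258 without it. The interaction was called in 9 of 30, with 8 negative, a share near the 28.6% over all genes. Of the p27 family, Cdkn1b rose by 0.84 with VE-821 and 1.22 without it (interaction -0.38, adjusted p = 0.0814), while Cdkn1c had 8.23 and 8.31 with both drugs, against 4.97 and 4.88 with VE-821 alone, a rise of 3.34 compared with 0.82 (interaction 2.52, adjusted p = 1.13e-05). H4 genes rose in 10 of 10 cases both with and without VE-821, with medians of 2.60 and 1.44. Of 31 interferon-stimulated genes 25 were lower and 3 higher with both drugs than with VE-821 alone. Against DMSO, 8 were lower and 6 higher with RVX2135, and the interaction was called in 24.

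RVX2135 alone was also set directly against VE-821 alone at the same dose of 10 µM. The 2 drugs are of different chemical classes, and the comparison asks where their levels differed. VE-821 alone was not tested against DMSO here, so a difference does not show which drug moved a gene, and a gene can differ though both drugs moved it the same way. Levels differed in 2029 genes (27%), with 1059 higher and 970 lower with RVX2135. This comparison shares the 2 RVX2135 arrays with RVX2135 against DMSO. Sterol and fatty acid genes were higher with RVX2135 in 23 of 31 cases and lower in 0, with a median difference of 0.94. Hmgcs1 had 13.11 and 12.96 with RVX2135, against 11.25 and 11.22 with VE-821, a difference of 1.80 (adjusted p = 3.51e-07). ATF4 and CHOP stress genes were lower with RVX2135 in 35 of 41 cases and higher in 2, with a median difference of -0.92. Against DMSO, 16 of these genes were higher with RVX2135 and 3 lower. Ddit3 had 8.05 and 8.42 with RVX2135, against 9.03 and 9.42 with VE-821, a difference of -0.99 (adjusted p = 0.00171). Of 21 NF-kappaB genes and chemokines 17 were lower with RVX2135 than with VE-821 and 2 higher. Against DMSO, 5 of them were higher with RVX2135 and 4 lower (median 0.05). Cd40 had 5.60 and 5.39 with RVX2135, against 8.22 and 8.36 with VE-821, a difference of -2.79 (adjusted p = 2.96e-08). Cd74 differed by -3.23 (adjusted p = 7.33e-09).

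**Figure D4:**
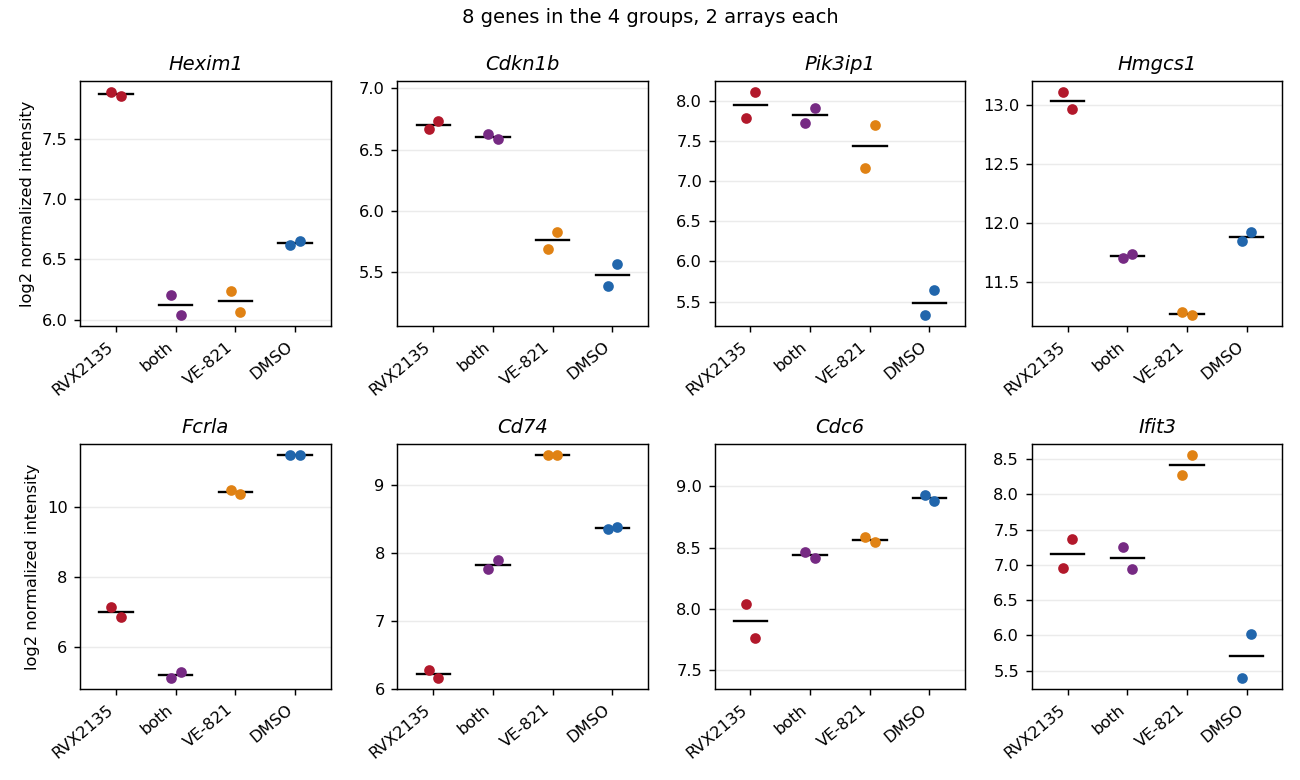
Log2 normalized intensity (y axis, scaled per panel) of 8 genes on the 2 arrays of each group (x axis: RVX2135, both drugs, VE-821, DMSO), with the group mean as a black line. Hexim1 is high in the RVX2135 group alone (7.85 and 7.89), Fcrla is low in both groups that received RVX2135, and Ifit3 is higher in the VE-821 group (8.28 and 8.56) than in the RVX2135 group (6.95 and 7.36).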

How the data were processed

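RNA of λ820 cells was read on 8 one-colour Illumina bead arrays, 2 per group. The deposited table holds each probe's intensity, background-subtracted and not normalized, with the authors' detection p-value. Per the submitters' processing notes, GenomeStudio was used. The authors' deposited normalized values were used as an alternative. For this, values under 1 were set to 1, and log2 was taken after adding 16. Intensities were background-corrected and quantile normalized with neqc (offset 16) in limma 3.58.1 (R 4.3.3), and all 8 arrays entered 1 linear model with empirical Bayes moderation. Benjamini-Hochberg adjustment at 0.05 ran over the 7508 genes within each of 4 comparisons: RVX2135 minus DMSO, both drugs minus VE-821, the difference of these, and RVX2135 minus VE-821. Gene symbols come from GEO's platform annotation, updated for 23962 of 23978 named probes. "At least" folds set a probe that is not above background at the higher of its own value and the lowest signal of detected probes. The text names genes from the 25 largest rises and 25 largest falls called without overlap, up to 6 members of each list by adjusted p, fixed genes such as Hexim1, Myc and Chek1, and extremes among genes at background in 1 group. Marker genes and Srebf2 were named for other reasons, given beside them. The members and lists were chosen with earlier results of these data known. Near-identical genes can share a probe's signal. Alternatives changed the normalization, the filter, the block, the probe rule and the arrays included. 1 gene is not reported here.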

Additional observations from a re-analysis of the deposited data

Results flagged for a closer look

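Of the 174 genes called in opposite directions, the 14 given here were named by the rule for the report or changed by 2-fold or more with RVX2135 alone, and Lrrc14b, Gal3st2, Rsad2, Txnip, Isg15 and Chrnb1 qualified by size only, a rule set after their values were seen. In these the change with RVX2135 was called in opposite directions without and with VE-821, and the difference between the 2 changes was itself called (limma, interaction). All but Vim were higher with RVX2135 than with DMSO and lower with both drugs than with VE-821 alone. A fall of this kind need not bring a gene below its DMSO level, and both drugs were not tested against DMSO here. Mean log2 intensities of Ifit3 were 5.71 with DMSO, 7.16 with RVX2135, 8.42 with VE-821 and 7.10 with both drugs. In the same order, those of Bbc3 were 9.03, 10.53, 10.36 and 9.95, and those of Lpar6 were 8.08, 9.08, 8.17 and 7.25. The interferon-stimulated genes among them were Ifit3 (interaction -2.77), Rsad2 (-2.0) and Isg15 (-1.90), which had log2 changes of -1.31, -0.96 and -0.71 with VE-821 and 1.45, 1.05 and 1.19 without it. The class I gene H2-T23 had an interaction of -1.21. The apoptosis genes Bbc3 and Mcl1 had interactions of -1.91 and -0.79, with changes of -0.41 and -0.48 with VE-821 and 1.5 and 0.32 without it. Txnip, an inhibitor of thioredoxin, had -1.98, the receptor genes Lpar6 and Chrnb1 -1.92 and -1.68, the histone demethylase Kdm6b -1.03 and the phosphatase Dusp22 -1.02. Lrrc14b and Gal3st2 had -2.68 and -2.15. Vim, which encodes vimentin, went the other way, with a change of 0.40 with VE-821 and -0.58 without it (interaction 0.98).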

How the results depend on the processing

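The count of genes called for RVX2135 minus DMSO, 2481, ranged from 2053 to 2775 under the other settings of the normalization, the filter and the fit. Leaving out 1 array, where the lone array is assumed to vary like the other groups, gave 1504 to 1992. The counts were 2979 to 3364 for both drugs minus VE-821, 1487 to 1964 for the interaction and 1331 to 1509 for RVX2135 minus VE-821. Testing every probe gave 3216 calls of 10431. Replicate numbers were not used to pair the samples. Deviations of same-numbered arrays correlated at -0.03 to 0.19, the highest value being that of DMSO and RVX2135. With 2 arrays a group, such correlations cannot exclude that same-numbered arrays share a source or batch. With a replicate block the count for RVX2135 minus DMSO was 2571 and that for both drugs minus VE-821 was 3896. Leaving out 1 array at a time, signs turned for 5 genes that were not called, with log2 changes of -0.026 to 0.38 for Birc6, -0.20 to 0.019 for Cdkn2a, -0.43 to 0.033 for Mlx, -0.034 to 0.28 for Mnt and -0.031 to 0.30 for Zbtb17. The lone array of RVX2135 was replicate 1 or 2 at these ends. With median scaling Cd3d, not called, was at 0.00043. Casp4, called at -0.46, was at 0.034 when detection on all 4 arrays was required, where another probe stands for it. The cause of the other changes was not tested. With 2 arrays per group, changes near the threshold depend on single arrays, and signals near background limit the dimmest genes.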

Other observations

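Genes were also grouped by the length of their locus in the RefSeq annotation. In the quartile of shortest genes (up to 9.03 kb) 399 rose and 270 fell, and 87 rose and 28 fell by 2-fold or more. Without the 52 histone genes in that quartile, 361 rose, 267 fell and 56 rose by 2-fold or more. In the 2 middle quartiles 275 rose and 338 fell, and 300 rose and 319 fell, in order of length. In the quartile of longest genes (from 44.6 kb) 249 rose and 331 fell, and 15 rose and 36 fell by 2-fold or more. Rises of 2-fold or more numbered 23 and 16 in the middle quartiles, and falls of 2-fold or more 35 and 25, in order of length. The rises of 2-fold or more thus became fewer at each step, with or without histone genes. The other counts did not change steadily with length. These counts carry no test, and genes are not independent replicates. Of 15 circadian clock genes 6 rose and 1 fell.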
